A study of Danio rerio with 5 samples.

Results

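Wnt signalling and planar cell polarity genes were examined in vagus motor neurons of zebrafish embryos, in cells from the posterior end of the nucleus against cells from its anterior end. The genes were chosen by name. A gene was included when its zebrafish symbol began with wnt, fzd, sfrp, dkk, dact, dvl, lrp5, lrp6, axin, ctnnb1, tcf7, lef1, vangl, celsr, prickle, scrib, ror1 or ror2, and dact2 was fixed by its identifier. Of the 31953 Ensembl genes counted, 81 met this rule. All embryos carried the transgene Tg(isl1:Kaede), which places the photoconvertible protein Kaede under isl1 control, and were 28 to 30 hours old. Light turned Kaede red at one end of the vagus population, and red cells were picked by hand after the hindbrain had been dissociated with trypsin. Posterior cells gave 3 libraries (B, G and R) and anterior cells gave 2 (B and G), each from 100 cells. Cells were therefore chosen by transgene and position and not by a marker of one vagus branch. The labels do not say how many embryos were pooled in a library or whether libraries came from separate clutches, so p-values measure only the spread between these libraries, which may be technical.

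Wnt ligands are secreted lipid-modified proteins that bind Frizzled receptors. In the beta-catenin branch, an LRP co-receptor and Dishevelled switch off a destruction complex built on Axin, and beta-catenin then acts with TCF and LEF factors on target genes. In the planar cell polarity branch, Frizzled and Dishevelled work with the membrane proteins Vangl and Celsr and the cytoplasmic protein Prickle to orient cells within a tissue. In the zebrafish hindbrain this second branch is best known from facial branchiomotor neurons, whose caudal migration fails when vangl2, celsr2, scribble, fzd3a or prickle1 genes are lost.

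Reads assigned to genes numbered 14932562 to 19197178 in posterior and 17433311 to 20088585 in anterior libraries. Values below are counts per 1e+06 reads (CPM) after TMM scaling. They are not corrected for transcript length, so levels are compared between libraries and not between genes. The floor of 3 counts was 0.158 to 0.195 CPM in posterior and 0.148 to 0.177 CPM in anterior libraries and covers counting error only. ISL1, the gene whose control elements drive the transgene, had 1805 to 2255 CPM in posterior and 1848 to 2381 CPM in anterior libraries. Of 15 vagus motor neuron marker genes, 8 were detected in all 5 libraries and 1 in none, and levels of others were uneven. PHOX2A had 1466, 106 and 310.2 CPM in posterior libraries B, G and R and 84.9 and 220.0 CPM in anterior libraries B and G. CHAT, the acetylcholine synthesis gene, had 0, 11.1 and 10.3 CPM in posterior and 5.43 and 36.1 CPM in anterior libraries. Of the 13 tested markers, 3 had an unadjusted p under 0.05 in edgeR (23.1%, against 6.49% of all genes tested). PHOX2A was the 1 higher in posterior cells (2.28% of all genes were so called), and 2 were lower (4.21% of all genes). Of 36 marker genes of other nearby cell types, 14 had 0 counts in all 5 libraries, among them SOX10, FOXD3, krt5, cdh5 and hbae1.1. The summed level of that list was 270 to 629 CPM in posterior and 634 to 660 CPM in anterior libraries, with netrin (NTN1) genes among its higher members. The edgeR quasi-likelihood test gave 0 genes of 11827 with an adjusted p under 0.05 and 768 (6.49%) with an unadjusted p under 0.05, while DESeq2 called 252 and limma-voom 0.

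Of the 81 genes, 23 had 0 counts in all 5 libraries, 22 were detected in every library and 45 passed the filter on low counts and were tested. Another 13 were detected but fell under the filter. Of all 31953 genes, 14082 had 0 counts in all 5 libraries and 7273 were detected in every library. The share tested was 55.6% of the 81 genes and 37% of all genes. Posterior libraries detected 29 (B), 45 (G) and 46 (R) of the 81 genes, and anterior libraries detected 39 (B) and 44 (G). Posterior B was thus the library with fewest of them, as it was over all genes (10463 detected, against 12241 to 13589 in the other libraries). Uneven detection was common: of the 28 genes that reached 30 CPM in some library, 11 (39.3%) had 3 counts or fewer in another, against 33.8% of the 7713 such genes in the whole table. A library had 0 counts in 14.5% of 55 gene-by-library values whose mean over the other 4 libraries was 30 to 100 CPM, against 5.56% over all genes. Posterior B held 4 of these 8 zeros, and 401 of the 808 such zeros over all genes. At 100 CPM or more there was no zero among 30 values, against 0.206% over all genes.

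**Figure D1:**
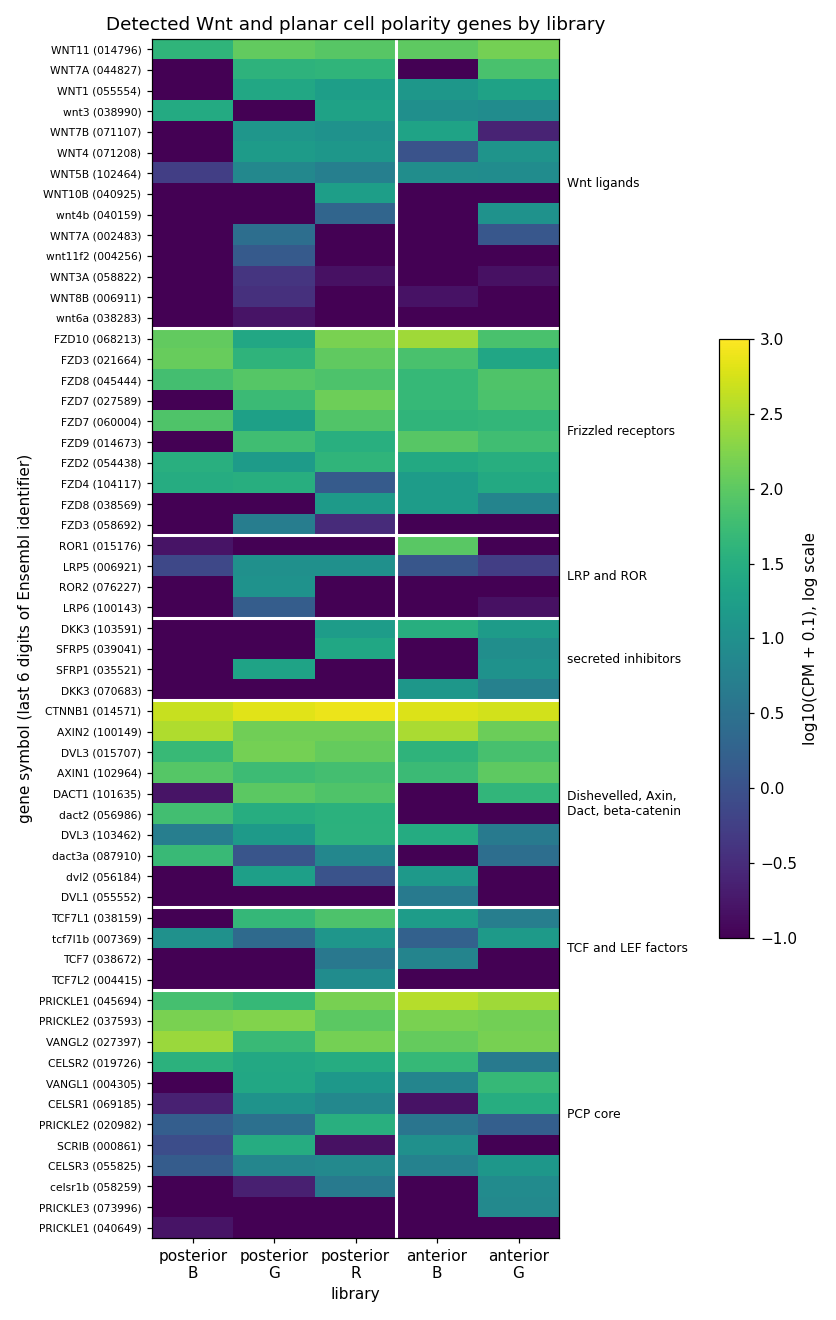
Level of each of the 58 detected Wnt and planar cell polarity genes (rows, grouped by role and ordered by mean level) in the 5 libraries (columns, posterior left of the line and anterior right of it), as log10(CPM + 0.1). CTNNB1 is high in every library, and many rows are dark in posterior B, which detected 29 of the 81 genes.

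None of the 45 tested genes had an adjusted p under 0.05 (edgeR), and the smallest adjusted p was 0.726. An unadjusted p under 0.05 was found for 3 of them (6.67%), near the 6.49% of all genes tested. One of these was higher in posterior cells (2.28% of all genes tested were so called) and 2 were lower (4.21% of all genes). The posterior and anterior libraries did not overlap in 4 of the 45 genes (8.89%), a smaller share than the 21.9% of all genes tested. Posterior lay above in 1 of them and below in 3, where 9.57% and 12.3% of all genes tested did. The log2 fold change was above 0 in 22 of the 45 genes (48.9%, against 47.9% of all genes), and its median was -0.022 (-0.055 over all genes). These shares lie near or below those of all genes. In bulk libraries such as these, fewer cells that express a gene and less RNA per cell cannot be told apart.

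Wnt ligands made up 26 of the genes. Of these, 12 had 0 counts in every library (14082 of 31953 over all genes), among them WNT5A, WNT2B, WNT16 and both genes named WNT8A. WNT3A reached at most 0.317 CPM and WNT8B at most 0.253 CPM, which is a handful of reads. Only WNT11 and WNT5B were detected in all 5 libraries. WNT11 (ENSDARG00000014796) encodes a ligand best known from the planar polarity branch, and had 41.0, 108 and 91.2 CPM in posterior libraries B, G and R and 102 and 144 CPM in anterior libraries B and G. The groups overlapped through posterior G, with a log2 fold change of -0.62 ± 0.61 (SE). The separate gene wnt11f2 was read in posterior G alone, at 1.268 CPM. WNT5B (ENSDARG00000102464), another ligand of the non-canonical kind, had 0.454, 7.35 and 5.17 CPM in posterior and 8.97 and 8.81 CPM in anterior libraries. Every posterior value lay below both anterior values, but the log2 fold change of -1.01 ± 1.33 (SE) was smaller than its error (edgeR unadjusted p 0.458). Without posterior B it was -0.49.

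The other tested ligands varied more between libraries of one group than between groups. WNT7A (ENSDARG00000044827) had 0, 38.0 and 41.7 CPM in posterior and 0 and 72.2 CPM in anterior libraries. It was missing from both B libraries and present in the remaining ones. WNT1, the classical ligand of the midbrain-hindbrain boundary and dorsal midline, had 0, 25.3 and 17.6 CPM in posterior and 12.8 and 19.9 CPM in anterior libraries. The gene wnt3 had 27.9, 0 and 20.0 CPM in posterior and 9.73 and 8.86 CPM in anterior libraries. Both lacked reads in 1 posterior library, and in the other two wnt3 was above both anterior libraries, while WNT1 overlapped with them. WNT10B was read in posterior R alone, at 17.4 CPM. Of the 9 tested ligands, 3 had a log2 fold change above 0 and 6 below. None had an unadjusted p under 0.05 in edgeR (6.49% of all genes tested had), and the smallest adjusted p was 0.776. With 9 genes, none called cannot be told apart from that share.

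Frizzled receptors were read more widely. Of 13 genes, 10 were detected and 6 were found in all 5 libraries, while FZD5, fzd6 and 1 of the genes named FZD9 had 0 counts throughout. FZD10 (ENSDARG00000068213), a receptor of dorsal neural tissue, had 109, 24.8 and 155 CPM in posterior and 269 and 70.5 CPM in anterior libraries. Anterior B was the highest library and anterior G lay between the posterior values. The group means were 96.2 ± 65.9 CPM (SD, n = 3) in posterior and 170.0 ± 141 CPM (SD, n = 2) in anterior cells, and the log2 fold change of -0.78 ± 0.73 (SE) turned to 0.47 without anterior B. FZD3 (ENSDARG00000021664), whose zebrafish family is needed for facial motor neuron migration, had 116, 40.5 and 107 CPM in posterior and 70.8 and 23.0 CPM in anterior libraries. Posterior G lay between the anterior values, and the log2 fold change was 0.95 ± 0.77 (SE), with an edgeR adjusted p of 0.801. The other FZD3 gene (ENSDARG00000058692) had 0, 4.817 and 0.2111 CPM in posterior and 0 CPM in both anterior libraries, and was not tested.

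FZD8 (ENSDARG00000045444) overlapped between the groups, at 62.7, 89.6 and 76.9 CPM in posterior and 48.4 and 78.9 CPM in anterior libraries. The other FZD8 gene (ENSDARG00000038569) overlapped through posterior R, at 0, 0 and 15.25 CPM in posterior and 16.16 and 6.335 CPM in anterior libraries. FZD2 also overlapped fully, with 33.9, 15.5 and 41.4 CPM in posterior and 26.6 and 32.5 CPM in anterior libraries. FZD7 has a pair of genes in the table. One (ENSDARG00000060004) had 79.1, 18.5 and 81.6 CPM in posterior and 41.6 and 44.9 CPM in anterior libraries, and the other (ENSDARG00000027589) had 0, 53.6 and 129 CPM in posterior and 47.6 and 72.6 CPM in anterior libraries. In posterior B the second gene was thus at 0 while the first was near its highest value. FZD9 (ENSDARG00000014673) was at 0 in posterior B too, with 59.8 and 33.3 CPM in posterior G and R and 89.9 and 58.3 CPM in anterior libraries. Log2 fold changes of the 9 tested Frizzled genes ran from -1.23 for FZD9 to 0.95 for FZD3, 5 of them above 0. None had an unadjusted p under 0.05 in edgeR, against 6.49% of all genes tested, a share too small to tell apart in 9 genes.

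Co-receptors gave few reads. LRP5, which pairs with Frizzled in the beta-catenin branch, had 0.649, 10.1 and 10.2 CPM in posterior and 1.06 and 0.445 CPM in anterior libraries. It was high in posterior G and R only, and the log2 fold change of 3.30 ± 2.24 (SE) had an edgeR unadjusted p of 0.164. The related LRP6 had at most 1.39 CPM, in posterior G. ROR1, a tyrosine kinase receptor for Wnt5-type ligands, had 1, 0 and 0 reads in posterior B, G and R, against 1596 reads (94.2 CPM) in anterior B and 0 in anterior G. ROR2 was read in posterior G alone, at 11.03 CPM. Both ROR genes were under the filter on low counts and were not tested, and each rests on 1 library.

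Secreted inhibitors gave few reads, with 6 of 10 genes at 0 counts in all libraries (14082 of 31953 over all genes). The 6 included dkk1a, dkk1b, dkk2 and SFRP2, which keep Wnt ligands or their co-receptors from signalling. DKK3, a divergent Dickkopf family member, was read from a pair of genes. The first (ENSDARG00000070683) had 0 reads in all 3 posterior libraries, against 12.8 and 5.69 CPM (217 and 115 reads) in anterior ones. Set at the floor of 3 counts per library, averaged over the group, the posterior level was 51.1-fold lower, a bound for counting error only. The mean of this gene over all 5 libraries was 3.70 CPM. Even among all genes that averaged 10 to 30 CPM over the other libraries, 37.9%, 18.3% and 15% were at 0 in posterior B, G and R. The part of missed transcripts in the DKK3 zeros was not tested. The edgeR unadjusted p was 0.0417, and it ran from 0.0569 to 0.142 when any 1 library was left out. The second gene (ENSDARG00000103591) had 0, 0 and 16.4 CPM in posterior and 31.6 and 15.4 CPM in anterior libraries. Posterior R lay between the anterior values, with a log2 fold change of -1.91 ± 1.42 (SE). SFRP1 and SFRP5, decoys that bind Wnt ligands, were each detected in 1 library of each group.

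Inside the cell, beta-catenin itself was read evenly. CTNNB1 (ENSDARG00000014571) had 464, 669 and 772 CPM in posterior and 605 and 539 CPM in anterior libraries. The group means were 635 ± 157 CPM (SD, n = 3) in posterior and 572 ± 46.7 CPM (SD, n = 2) in anterior cells, and the anterior values lay within the posterior range. The log2 fold change was 0.16 ± 0.34 (SE), with an edgeR adjusted p of 0.956. AXIN1, the scaffold of the destruction complex, also overlapped, at 88.7, 55.3 and 63.8 CPM in posterior and 52.7 and 103 CPM in anterior libraries.

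AXIN2, a scaffold gene that beta-catenin signalling itself induces and that is often used as its readout, was uneven within both groups. It had 336, 138 and 134 CPM in posterior libraries B, G and R and 315 and 124 CPM in anterior libraries B and G. Both B libraries were thus high and the other 3 alike, and the log2 fold change was -0.11 ± 0.57 (SE), with an edgeR adjusted p of 0.986. DACT1 had the opposite layout, with 0.0649, 99.9 and 79.7 CPM in posterior and 0 and 42.9 CPM in anterior libraries. It was at 1 read or none in both B libraries. What the letters stand for is not given in the labels, and both B libraries detected fewer genes than the G library of the same group.

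A gene whose posterior libraries all lay above the anterior ones was dact2 (ENSDARG00000056986). Dact proteins bind Dishevelled and modulate both Wnt branches. It had 60.7, 31.1 and 35.4 CPM (935, 491 and 671 reads) in posterior libraries and 0 reads in both anterior libraries. The groups did not overlap. The posterior mean of 42.4 ± 16.0 CPM (SD, n = 3) was at least 261-fold higher than the anterior level set at 3 counts per library and averaged. The edgeR unadjusted p was 0.00911 and the adjusted p 0.726. With a replicate block, fitted without posterior R, the unadjusted p was 0.0711, and the same libraries with no block gave 0.0227. Of the 45 genes, dact2 was the 1 that DESeq2 called (adjusted p 4.15e-07). Of all genes that averaged 30 to 100 CPM over the remaining libraries, the class in which dact2 lies near the lower edge, 5.21% were at 0 in anterior B and 2.7% in anterior G. In the class of 10 to 30 CPM it was 22.9% and 15.3%. Among the Wnt and polarity genes of the higher class, 3 of 14 were at 0 in anterior B, namely dact2, DACT1 and WNT7A. In anterior G it was 1 of 12, and that gene was dact2 itself. These counts thus include the dact2 zeros and are no separate measure of how often zeros occur. The part of missed transcripts in the dact2 zeros was not tested. The family member dact3a had 50.5, 1.01 and 7.12 CPM in posterior and 0 and 2.67 CPM in anterior libraries, which overlapped through posterior G.

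Dishevelled genes did not separate the ends of the nucleus. DVL3 (ENSDARG00000015707) had 49.5, 145 and 114 CPM in posterior and 40.4 and 67.6 CPM in anterior libraries, with posterior B between the anterior values and a log2 fold change of 0.92 ± 0.69 (SE). The other DVL3 gene (ENSDARG00000103462) had 5.13, 15.2 and 37.3 CPM in posterior and 29.3 and 4.41 CPM in anterior libraries. The gene dvl2 was at 0 in posterior B and anterior G, and DVL1 was read in anterior B alone, at 4.13 CPM.

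Of 5 TCF and LEF factors, the DNA-binding partners of beta-catenin, 4 were detected, 1 of them in all 5 libraries, and 3 were tested. LEF1 had 0 counts in all libraries and TCF7L2 was read in posterior R alone, at 8.60 CPM. TCF7L1 (ENSDARG00000038159), mostly a repressor until beta-catenin binds, had 0, 45.6 and 77.5 CPM in posterior and 16.2 and 5.05 CPM in anterior libraries. Posterior G and R were the highest and posterior B the lowest, so the groups overlapped, and the log2 fold change was 2.07 ± 1.31 (SE; edgeR unadjusted p 0.140). Its relative tcf7l1b had 10.6, 2.28 and 12.4 CPM in posterior and 1.65 and 14.9 CPM in anterior libraries.

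In the planar cell polarity core, all 12 genes were detected, 7 of them in every library, and 10 were tested. The lowest log2 fold change of the core was that of PRICKLE1 (ENSDARG00000045694), whose product binds Vangl at the membrane and whose zebrafish genes act in facial motor neuron migration. It had 66.8, 48.2 and 153 CPM in posterior libraries B, G and R and 353 and 266 CPM in anterior libraries B and G. The groups did not overlap. Means were 89.5 ± 56.1 CPM (SD, n = 3) in posterior and 309 ± 62.0 CPM (SD, n = 2) in anterior cells, and the log2 fold change was -1.76 ± 0.54 (SE). The edgeR unadjusted p was 0.0073 and the adjusted p 0.726. Across the 12 alternatives tried, the log2 fold change ran from -2.41 to -1.46 and the unadjusted p from 0.0035 to 0.045, so that each kept the sign and an unadjusted p under 0.05. The other gene named PRICKLE1 (ENSDARG00000040649) had 1 read in all, in posterior B.

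**Figure D2:**
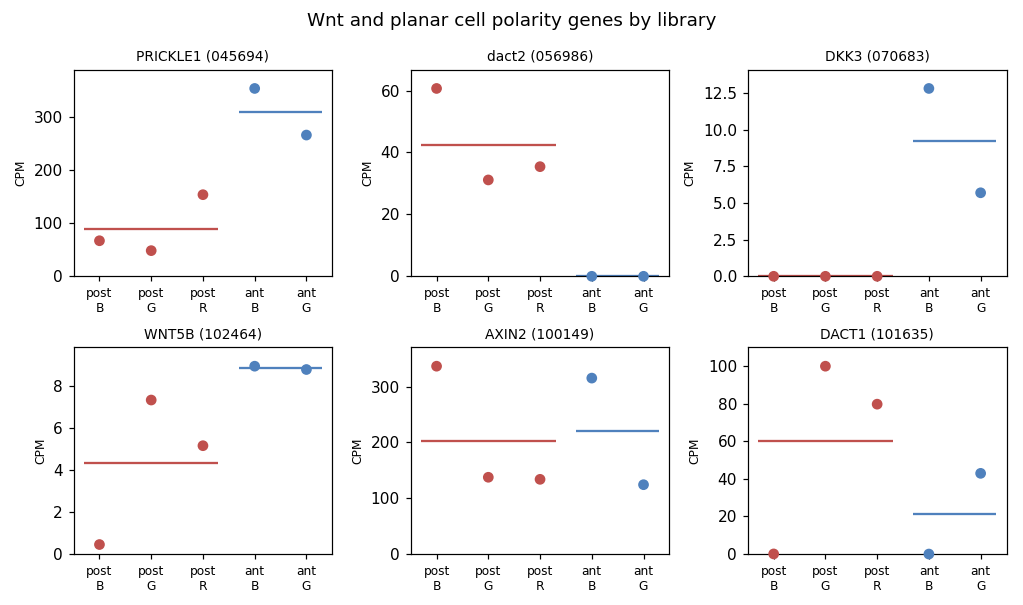
CPM in each library (points, posterior in red and anterior in blue, with the group mean as a line) for the 4 tested genes whose groups do not overlap and for AXIN2 and DACT1. PRICKLE1, DKK3 and WNT5B lie lower in all posterior libraries, dact2 is at 0 in both anterior libraries, AXIN2 is high in both libraries named B, and DACT1 is at or near 0 in them.

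VANGL2 and PRICKLE2 overlapped between the groups. VANGL2 (ENSDARG00000027397), the transmembrane partner of Prickle, had 246, 51.9 and 144 CPM in posterior and 115 and 150 CPM in anterior libraries. Both anterior values lay inside the posterior range. Means were 147 ± 97.1 CPM (SD, n = 3) in posterior and 133 ± 24.5 CPM (SD, n = 2) in anterior cells. The log2 fold change was 0.14 ± 0.62 (SE), with an edgeR adjusted p of 0.981. PRICKLE2 (ENSDARG00000037593), a related gene, had 158, 176 and 98.4 CPM in posterior and 159 and 139 CPM in anterior libraries. Its means were 144 ± 40.8 CPM (SD, n = 3) in posterior and 149 ± 13.6 CPM (SD, n = 2) in anterior cells, and the log2 fold change of -0.052 ± 0.51 (SE) had an edgeR adjusted p of 0.994.

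The Celsr cadherin genes, which link core proteins of neighbouring cells, differed by library. CELSR2 had 37.5, 25.9 and 29.8 CPM in posterior and 48.2 and 4.26 CPM in anterior libraries, so the anterior values lay on both sides of the posterior ones. CELSR1 (ENSDARG00000069185) had 0.130, 11.3 and 7.28 CPM in posterior and 0.059 and 31.4 CPM in anterior libraries, low in both B libraries like DACT1. CELSR3 had 1.36, 6.72 and 7.44 CPM in posterior and 5.84 and 13.0 CPM in anterior libraries. VANGL1 had 0, 24.7 and 13.6 CPM in posterior and 6.61 and 48.3 CPM in anterior libraries. SCRIB, a basolateral polarity scaffold, had 0.779, 29.9 and 0.0528 CPM in posterior and 10.0 and 0 CPM in anterior libraries. The second PRICKLE2 gene (ENSDARG00000020982) stood out in posterior R alone, at 33.3 CPM against 1.49 to 3.48 CPM in the other libraries. Of the 10 tested core genes, 4 had a log2 fold change above 0 and 6 below.

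**Figure D3:**
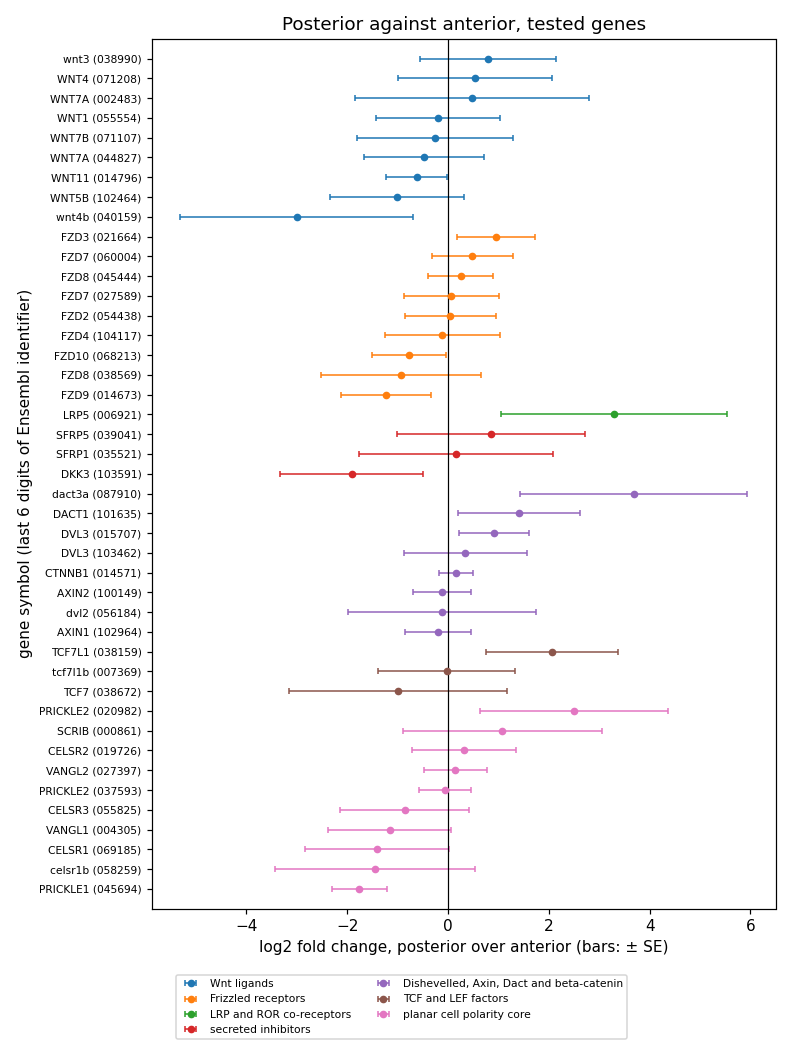
Log2 fold change of posterior over anterior (points, with SE as bars) for the 43 tested genes other than dact2 and DKK3 (ENSDARG00000070683), which had 0 reads in 1 group, coloured by role. Most bars cross 0, and PRICKLE1 (-1.76 ± 0.54) stands farthest from it relative to its error.

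The zebrafish lineage went through a further genome duplication, and many of its genes have duplicates. In 12 cases 2 identifiers shared a symbol. Whether each of these pairs came from that duplication was not tested. In 3 of these pairs only 1 gene had any read (DVL1, FZD9 and SFRP1), and in WNT8A neither had. Both genes of a pair were above 3 counts in all 5 libraries only for DVL3 and PRICKLE2. Reads that aligned to several places were left out of the counts, so values of near-identical copies are uncertain.

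Other genes of the pathways were taken from 6 lists of secretion factors, co-receptors, destruction complex, nuclear partners, target genes and planar polarity effectors. Of 155 genes in the union of these lists, 111 were tested. The log2 fold change was above 0 in 43 (38.7%, against 47.9% of all genes tested) and below in 68. An unadjusted p under 0.05 was found for 7 (6.31%, against 6.49% of all genes tested), and all 7 were lower in posterior cells. Over all genes tested, 498 of the 768 with such a p were lower (4.21% of all genes tested). None had an adjusted p under 0.05 (edgeR, smallest 0.683). The groups did not overlap in 23 of the 111 genes (20.7%, against 21.9% of all genes).

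Of the 7, 3 belong to the destruction complex list, which also holds kinases and DIXDC1, a partner of Dishevelled. They were 10% of its 30 tested genes, against 6.49% of all genes tested. All 3 were lower in posterior cells, as were 498 of the 768 genes with such a p over all genes tested. In that list 12 of 30 tested genes had a log2 fold change above 0 (40%, against 47.9% of all genes tested). The groups did not overlap in 6 (20%, against 21.9% of all genes tested). Posterior lay below in all 6, as it did in 1459 of the 2591 genes without overlap over all genes tested (12.3% of all genes tested). APC2, a neuronal relative of the tumour suppressor APC, had 0.195, 7.42 and 26.8 CPM in posterior and 109 and 171 CPM in anterior libraries, a log2 fold change of -3.51 ± 0.87 (SE; edgeR unadjusted p 0.00148). AMER2, a membrane protein that recruits APC, had 51.8, 438 and 339 CPM in posterior and 942 and 876 CPM in anterior libraries, a log2 fold change of -1.71 ± 0.56 (SE). DIXDC1 (ENSDARG00000025302), a DIX-domain protein that associates with Dishevelled, had 22.7, 33.2 and 19.9 CPM in posterior and 147 and 92.7 CPM in anterior libraries, a log2 fold change of -2.25 ± 0.71 (SE; edgeR unadjusted p 0.00789, and 0.0573 without anterior B). The kinase gene CSNK1A1, which primes beta-catenin for GSK3, had 706, 562 and 679 CPM in posterior and 1189 and 791 CPM in anterior libraries (edgeR unadjusted p 0.0736). The other DIXDC1 gene (ENSDARG00000056267) overlapped, at 33.3, 38.15 and 26.9 CPM in posterior and 32.8 and 64.2 CPM in anterior libraries. GSK3B and APC also overlapped between groups. GSK3B had 78.3, 460.3 and 540.1 CPM in posterior and 445 and 350 CPM in anterior libraries, and APC had 123, 29.3 and 91.4 CPM in posterior and 41.1 and 174 CPM in anterior libraries.

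Among planar polarity effectors, 8 of 29 tested genes had a log2 fold change above 0 (27.6%, against 47.9% of all genes tested) and 21 below. An unadjusted p under 0.05 was found for 2 in edgeR (6.9%, against 6.49% of all genes tested), both lower in posterior cells (4.21% of all genes). The groups did not overlap in 7 (24.1%, against 21.9%). Posterior lay below in 5 of these and above in 2, dlg1b and CDC42, where 12.3% and 9.57% of all genes tested did. DAAM1 (ENSDARG00000015059), a formin that binds Dishevelled, had 0, 0 and 7.07 CPM in posterior and 50.2 and 49.7 CPM in anterior libraries (edgeR unadjusted p 0.00654). That p was 0.109 with DESeq2, 0.0717 with the replicate block over 4 libraries and 0.182 in the legacy form of edgeR. The other DAAM1 gene (ENSDARG00000009689) overlapped, at 134, 72.4 and 72.9 CPM in posterior and 235 and 80.9 CPM in anterior libraries. The GTPase gene rhoab had 50.4, 79.8 and 60.8 CPM in posterior and 138 and 178 CPM in anterior libraries, a log2 fold change of -1.32 ± 0.57 (SE). Its unadjusted p of 0.0383 was lost, at 0.052 to 0.153, when any 1 library was left out.

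The remaining 2 genes were ctbp1 and en1b. The co-repressor gene ctbp1 had 1350, 1113 and 1791 CPM in posterior and 2210 and 2034 CPM in anterior libraries, a log2 fold change of -0.58 ± 0.26 (SE; edgeR unadjusted p 0.0426, and 0.0804 to 0.171 without posterior B, posterior G or anterior B). The homeobox gene en1b, which depends on Wnt1 at the midbrain-hindbrain boundary, had 0, 0 and 3.06 CPM in posterior and 51.0 and 98.4 CPM in anterior libraries. The separate gene CTBP1 (ENSDARG00000019213) overlapped, at 0.0649, 52.9 and 118 CPM in posterior and 47.0 and 73.6 CPM in anterior libraries. Target genes as a list did not lean one way, with 13 of 24 tested genes above 0 and 11 below. Lists of secretion factors and of co-receptors had no gene with an unadjusted p under 0.05 among 5 and 6 tested. Over all genes tested the share was 6.49%, from which so few genes cannot be told apart.

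**Figure D4:**
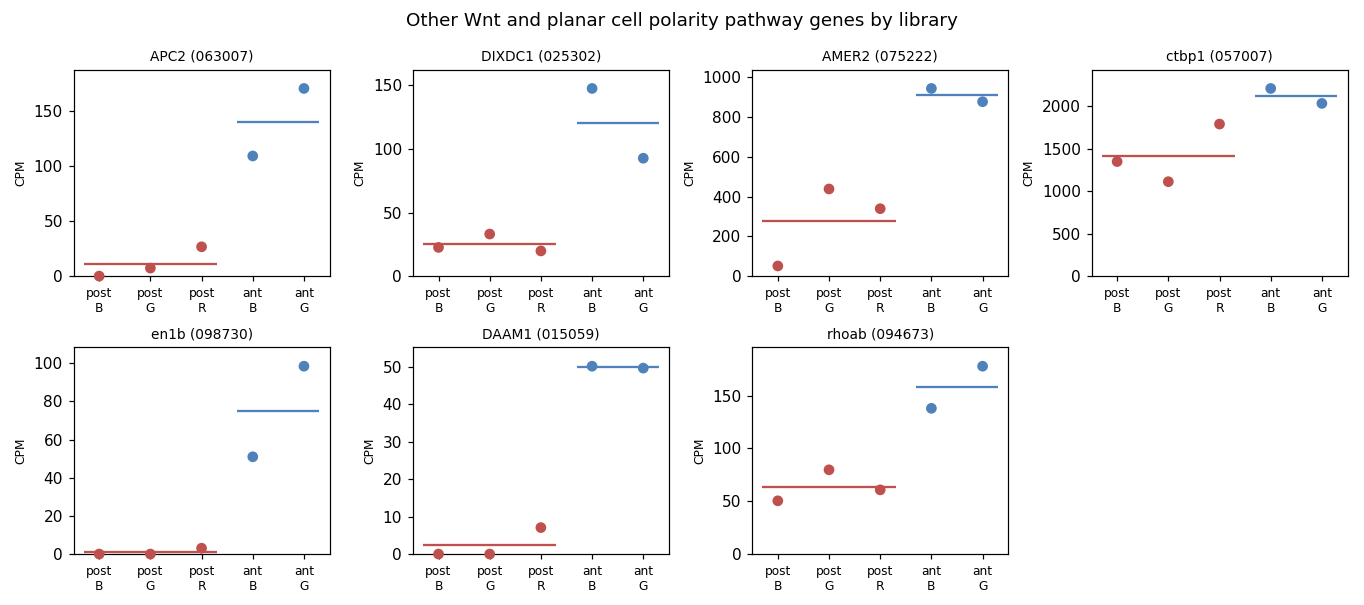
CPM in each library (points, posterior in red and anterior in blue, with the group mean as a line) for the 7 further pathway genes with an unadjusted edgeR p under 0.05. In all 7 the posterior libraries lie below both anterior libraries, with 0 reads in posterior B and G for en1b and DAAM1.

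Most tested markers of differentiated neurons were lower in posterior cells, as were PRICKLE1 and these 7 genes. PRICKLE1 and the 7 genes were picked by an edgeR unadjusted p under 0.05, and dact2, picked in the same way, was higher. Of the 45 tested Wnt and polarity genes, 22 had a log2 fold change above 0. The marker lists were chosen with earlier results of these data known. Of 15 tested neuron markers, 1 had a log2 fold change above 0 (47.9% of all genes tested had) and 14 below. An unadjusted p under 0.05 was found for 7 (46.7%, against 6.49% of all genes tested), all lower in posterior cells (4.21% of all genes tested). Their summed level was 6069, 6579 and 5667 CPM in posterior and 6912 and 11730 CPM in anterior libraries. Of 19 tested markers of progenitor and cycling cells, 13 were above 0, and 5 had an unadjusted p under 0.05 (26.3%, against 6.49% of all genes tested). Of these 5, 4 were higher in posterior cells (2.28% of all genes tested were). MCM2 was lower, at 716, 873 and 647 CPM in posterior and 1160 and 1156 CPM in anterior libraries. The groups did not overlap in 7 (36.8%, against 21.9% of all genes tested), with posterior above in 5 and below in 2, MCM2 and nes. The summed level of the list overlapped, at 8562 to 10620 CPM in posterior and 7849 to 10940 CPM in anterior libraries. The part of cell maturity in the PRICKLE1 and pathway results was not tested.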

How the data were processed

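RNA of hand-picked cells went through SMART-Seq v4 amplification and Nextera XT library preparation, per the labels' protocols. Each deposited file holds the raw read counts of 1 library by Ensembl gene, with no normalization. TopHat2 2.1.0, HTSeq 0.6.1 and the build GRCz10 are named per the submitters' processing notes, while annotation release and strand setting are not given in the sources used here, so overlapping and antisense genes are uncertain. Lines for reads not given to a gene stayed out. Assigned reads were 69.0% to 72.5% of those counted.

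Counts were tested with edgeR 4.0.16 in R 4.3.3 (TMM factors, filterByExpr with minimum count 10 and total 15, glmQLFit in its newer form, glmQLFTest), with Benjamini-Hochberg adjustment over all genes tested and a threshold of 0.05. All p-values are two-sided. Fold changes are posterior over anterior, and their SE is approximate. A fitted fold change of a gene at 0 in 1 group is no bound. The script was tested on simulated data.

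Symbols came from a table pairing 26121 of 31953 identifiers with names. List symbols were matched in any case, or, for symbols in capitals, with a closing a or b dropped. Values by library were given for genes with an unadjusted p under 0.05, groups that do not overlap or a mean of at least 100 CPM, and for list genes with such a p, at most 5 a list. Some marker genes are not reported here. Other genes were chosen for mention after their values were seen. Members and lists were chosen with earlier results of these data known. Alternatives were RLE factors, no filter, limma-voom (limma 3.58.1), DESeq2 1.42.0, a minimum mean of 5 CPM, the replicate letter as a block, each library left out, and the legacy form of glmQLFit, which was added after seeing the data.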

Additional observations from a re-analysis of the deposited data

How the results depend on the processing

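Over all genes, DESeq2 called 252 against 0 in edgeR, and leaving out 1 library gave 0 to 7, with 1 without anterior B and 7 without anterior G. Genes with an unadjusted p under 0.05 numbered 768, 502 to 1009 without 1 library, and 211 with the replicate block. The block was fitted over the 4 libraries that share letters, without posterior R, and those 4 libraries with no block gave 524. Among the tested Wnt and planar polarity genes, DESeq2 called 1 (dact2) and the other alternatives 0. The count with an unadjusted p under 0.05 and higher in posterior was 1, with 0 under the replicate block and 1 to 2 without 1 library. The count lower in posterior was 2, with 1 under the block, 1 in the same 4 libraries with no block and 1 to 2 without 1 library. The number with a log2 fold change above 0 was 22, and 21 to 34 without 1 library, the highest without anterior G. Their median log2 fold change of -0.022 ran from -0.17 with limma-voom to 0.41 without anterior G and carries no direction.

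For the 7 pathway genes lower in posterior, counts were 3 in the legacy form, 2 under the block and 5 to 13 without 1 library (13 without anterior G). The count higher in posterior, 0, became 1 with RLE factors, a mean CPM of at least 5 and limma-voom, 3 with DESeq2, and 0 to 4 without 1 library.

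Small log2 fold changes changed sign. With the replicate block they were -0.0064 for CTNNB1, -0.088 for VANGL2, 0.20 for PRICKLE2 (ENSDARG00000037593) and 0.14 for AXIN2. The same 4 libraries with no block gave 0.018 for CTNNB1, 0.17 for VANGL2, 0.20 for PRICKLE2 and 0.14 for AXIN2. The signs of PRICKLE2 and AXIN2 thus changed on leaving out posterior R, and those of CTNNB1 and VANGL2 on adding the block. Limma-voom gave -0.11 for VANGL2. Without 1 library they ran from -0.39 to 0.55 for VANGL2, -0.22 to 0.20 for PRICKLE2, -1.47 to 0.47 for FZD10 and -0.66 to 0.69 for AXIN2. FZD10 changed sign only without anterior B, and VANGL2 did so without posterior B (-0.39) or anterior B (-0.031). Why a library or a method moved these signs was not tested. With the block, dact2 had an edgeR unadjusted p of 0.0711 and PRICKLE1 0.0166, and the same 4 libraries with no block gave 0.0227 and 0.0035. Deviations of same-letter libraries were close to uncorrelated over all genes tested (-0.00119 for B, 0.00781 for G). A link limited to some genes could not show in these values, and what the letters stand for was not tested. Fits without 1 anterior library assume that the lone anterior library varies like the posterior ones. In the legacy form APC2, AMER2, DAAM1, ctbp1 and en1b had unadjusted p-values of 0.0633 to 0.182. Genes averaging 10 to 30 CPM over the other libraries had 0 counts in 21.9% of cases, which limits what 3 posterior and 2 anterior libraries can show for them.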
